A study of Rattus norvegicus with 24 samples.

Results

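The Fos and Jun proteins are basic leucine zipper transcription factors that pair to form AP-1, the factor that binds DNA at the motif TGACTCA. Jun proteins can pair with each other, while Fos proteins need a Jun partner. In neurons the genes are switched on quickly by electrical activity, growth factors and stress, and Jun is part of the response to a cut axon, downstream of the JNK kinases. Glia and macrophages use the same genes when they are activated. The family is described here in the rat spiral ganglion, the cluster of neurons that joins the hair cells of the cochlea to the brain. Of the 7 genes of the family (Fos, Fosb, Fosl1, Fosl2, Jun, Junb and Jund), 6 had a row whose RefSeq accession maps to the gene. The level of Fosb was not analysed here. Fos, Fosl2, Jun and Junb are in the authors' table of the whole series, among 5750 named genes. Fosl1 and Jund were read from the tables of the array platforms, which hold 9627 named genes. The genes are those of the family by name, and where several rows matched a gene, the row with the highest mean level was taken.

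Deaf Sprague-Dawley rats, of both sexes, had daily intraperitoneal kanamycin (400 mg/kg) over the days P8 to P16 after birth, which kills hair cells, and their uninjected littermates are called hearing. At P32 or P60 the ganglia were cut into apex and base, and each sample pools 4 to 6 ganglia. The 8 groups are hearing apex, deaf apex, hearing base and deaf base at each age, with 3 samples a group and 24 in all. Amplified RNA was hybridised in 1 colour, with replicate 1 of every group on a platform that holds 8 samples and replicates 2 and 3 on a platform that holds 16. Levels are log2 of the authors' RMA-normalized intensity, and no level is compared between genes. A portion is a mixture of neurons, glia, immune and connective tissue cells, so more cells of a type and more RNA per cell cannot be told apart.

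Facts of the whole set that touch the results are few. Sample medians lay between 1997.4 and 2262.6 intensity units. All 10 listed neuron markers and all 10 Schwann cell and satellite glia markers were among the genes tested, with summed levels of 16.58 to 17.91 and 17.16 to 17.85 log2 units over the 24 samples. P60 deaf apex replicate 2 was the highest sample of the study for Fos, Fosl1, Fosl2 and Junb. P32 hearing base replicate 1 had Jun at 9.04, while the other 7 samples of the 8-sample platform were at 10.91 or above. P32 hearing apex replicate 1 decided the call of Fos at P32. Values without each of these samples are given below.

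**Figure D1:**
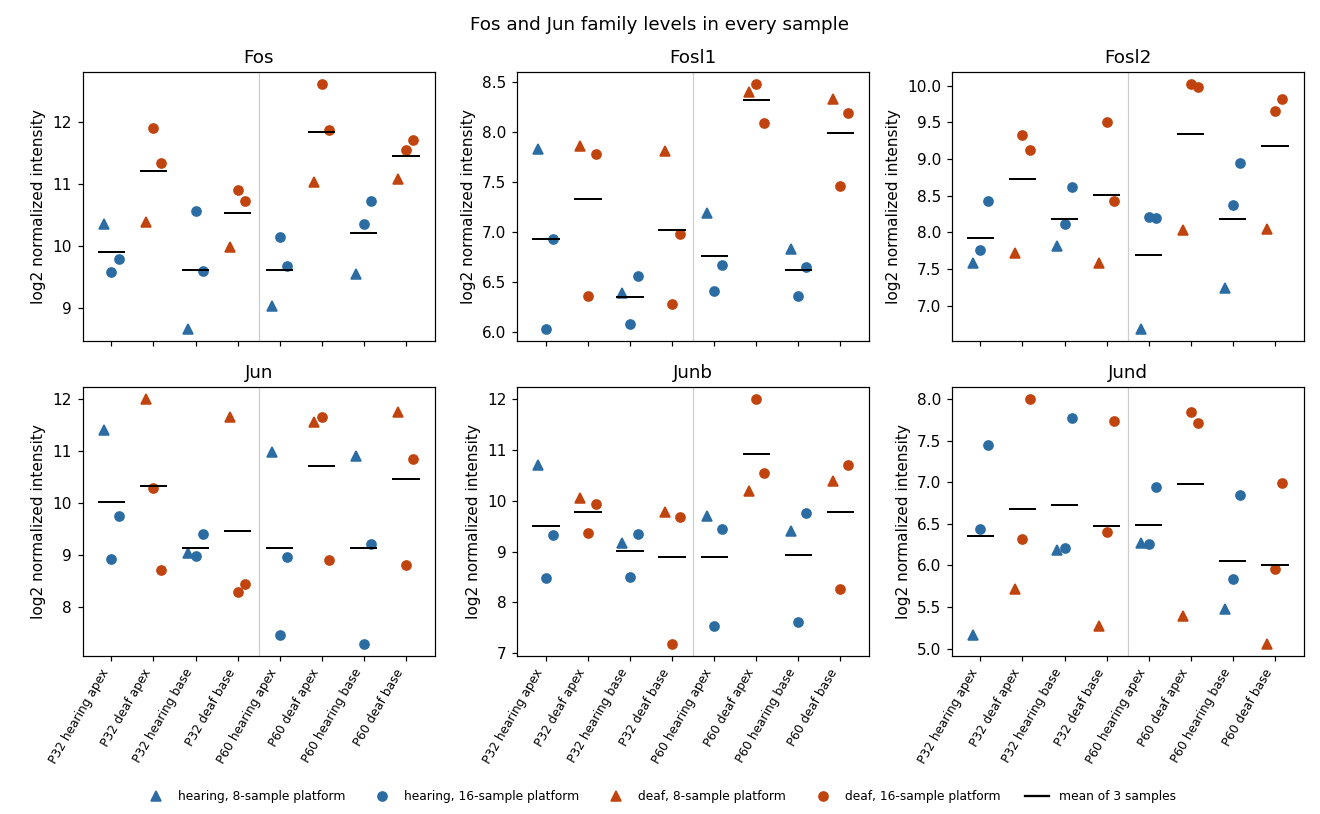
Level of each gene in every sample, as log2 normalized intensity on the vertical axis, for the 8 groups on the horizontal axis. Triangles are samples of the 8-sample platform, circles samples of the 16-sample platform, and bars the mean of 3 samples. The P60 deaf samples of Fos (11.03 to 12.62) and Fosl1 (7.46 to 8.48) lie above all P60 hearing samples, and Jun differs by platform in 7 of 8 groups.

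The first comparison sets deaf against hearing ganglia at P60, weeks after the injections. Fos, Fosl1 and Fosl2 were higher in deaf ganglia, by 1.73, 1.47 and 1.32 log2 units as the mean of both portions. Jun and Junb had differences of like size, 1.45 and 1.44, but spread too widely between samples to pass, and Jund was at 0.22. So 3 of 6 members passed at an adjusted p of 0.05, and 0 of 6 did when apical and basal samples of 1 age, condition and number were treated as correlated (adjusted p = 0.402 for Fos, 0.335 for Fosl1 and 0.122 for Fosl2). Over all genes 1.18% passed in this direction in the table of the whole series and 0.675% did in the platform tables. The median difference was 1.44 over the 6 members and 0.04 over the 5750 genes.

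Fos encodes c-Fos, the member whose transcription follows activity most closely. Its levels at P60 were 11.03, 12.62 and 11.88 in the deaf apex and 11.09, 11.56 and 11.71 in the deaf base (replicates 1, 2 and 3). In hearing rats they were 9.03, 10.15 and 9.67 in the apex and 9.55, 10.36 and 10.73 in the base. All 6 deaf samples lay above all 6 hearing samples. The same was true of 1.17% of the genes of the series table. The difference of 1.73 ± 0.26 log2 units (SE), a 3.32-fold change, had an adjusted p of 0.00188 by limma and kept its call in all 24 fits that left out 1 sample (adjusted p up to 0.01), but not with an estimated correlation between the portions (adjusted p = 0.402). It was 1.77 between samples of the same number on the 8-sample platform (n = 2 differences) and 1.71 on the 16-sample platform, where limma alone on those samples gave an adjusted p of 0.0445.

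Fosl1 encodes FRA-1, a Fos protein without the strong activation domain of c-Fos, whose transcription is itself raised by AP-1. Its P60 levels were 8.40, 8.48 and 8.09 in the deaf apex and 8.33, 7.46 and 8.19 in the deaf base. In hearing rats they were 7.19, 6.41 and 6.67 in the apex and 6.83, 6.36 and 6.65 in the base. The deaf and hearing samples did not overlap. Such separation was seen for 0.914% of the genes of the platform tables. The difference was 1.47 ± 0.26, 2.77-fold (limma, adjusted p = 0.00861). It passed in every fit that left out 1 sample (adjusted p up to 0.0397). On the 16-sample platform alone it was 1.53 and no longer passed (limma, adjusted p = 0.173), and on the other platform it was 1.35. Fosl1 is absent from the authors' table of the whole series, and whether its dim values stand above background was not tested.

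Fosl2 encodes FRA-2, a longer-lived Fos protein of the same kind. Its row NM_012954 was at 8.03, 10.02 and 9.98 in the P60 deaf apex and 8.05, 9.65 and 9.82 in the deaf base. The hearing samples were at 6.69, 8.21 and 8.20 in the apex and 7.24, 8.37 and 8.95 in the base. The deaf and hearing ranges overlapped across platforms, since replicate 1 was the lowest sample in each of the 8 groups. They did not overlap within either platform, but the share of all genes separated in that looser way was not counted. The difference of 1.32 ± 0.23, 2.49-fold, had an adjusted p of 0.00604 by limma, and up to 0.026 in the fits that left out 1 sample. It was 1.08 on the 8-sample platform and 1.44 on the 16-sample platform (limma, adjusted p = 0.0754 on the latter alone). Without the platform term, limma gave an adjusted p of 0.309.

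The platform tables hold a second record of the gene, NM_001013146, which was not the brightest and may share probes with the first. Its P60 deaf samples ran from 7.54 to 9.07 and its hearing samples from 6.60 to 7.23, so they did not overlap. Such separation was seen for 0.914% of the genes of the platform tables, counted on the brightest row of each gene. The difference of this second record was 1.17 ± 0.27. It did not pass over all rows of those tables (limma, adjusted p = 0.0774). Both records were thus higher in the P60 deaf samples, with sizes inside each other's 95% intervals (0.83 to 1.80 and 0.61 to 1.73).

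Without P60 deaf apex replicate 2 the differences were 1.60 for Fos, 1.38 for Fosl1 and 1.25 for Fosl2, and each still passed (limma, adjusted p = 0.0073, 0.0383 and 0.0244). The calls of these 3 genes rested on counting apical and basal samples as independent. When the portions of 1 age, condition and number were treated as correlated (0.629 in the series table and 0.588 in the platform tables), the sizes stayed at 1.73, 1.47 and 1.32. Limma's standard errors then rose to 0.48 for Fos, 0.37 for Fosl1 and 0.28 for Fosl2, with the adjusted p given above, and the genes called at P60 over the series table went from 77 to 4. The apical difference of Fosl2 at P60 stayed at the edge of the threshold (adjusted p = 0.05), and that of Fos did not pass.

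Jun encodes c-Jun, the main partner of Fos proteins and the target of JNK in injured neurons. At P60 it was at 11.56, 11.66 and 8.89 in the deaf apex and 11.74, 8.80 and 10.84 in the deaf base. The hearing samples were at 10.98, 7.45 and 8.95 in the apex and 10.91, 7.29 and 9.20 in the base. The ranges overlapped widely, and replicate 1 was high in deaf and in hearing rats. The difference of 1.45 ± 0.55 did not pass (limma, adjusted p = 0.269). Its 95% interval of 0.29 to 2.62 includes the differences of the 3 Fos genes. A single pair, number 2 of the apex, differed by 4.21, and without P60 deaf apex replicate 2 the difference was 1.03. The difference was 0.71 on the 8-sample and 1.82 on the 16-sample platform. Over the 8 groups Jun was higher on the 8-sample platform by 2.05 log2 units, the widest such gap of the 6 genes.

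Junb encodes JunB, a weaker activator that can restrain c-Jun. At P60 it was at 10.20, 12.01 and 10.55 in the deaf apex and 10.39, 8.27 and 10.71 in the deaf base. The hearing samples were at 9.71, 7.54 and 9.45 in the apex and 9.40, 7.61 and 9.77 in the base. Every deaf sample was above the hearing sample of the same number and portion (6 of 6 pairs), although the groups overlapped. The difference was 1.44 ± 0.55, with a 95% interval of 0.28 to 2.60 and an adjusted p of 0.269 by limma. It was 1.10 without P60 deaf apex replicate 2, whose pair differed by 4.48. By platform it was 0.73 (8-sample) and 1.80 (16-sample).

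Jund encodes JunD, which many tissues express steadily and which slows growth in fibroblasts. At P60 its deaf samples ran from 5.06 to 7.84 (median 6.47) and its hearing samples from 5.48 to 6.94 (median 6.27), ranges that overlap throughout. The difference was 0.22 ± 0.38 with a 95% interval of -0.58 to 1.02 (limma, adjusted p = 1). That interval excludes the point estimates of the other 5 members, but the difference between genes was not tested. The platforms pointed in opposite directions, at -0.65 on the 8-sample and 0.65 on the 16-sample platform. Jund too is absent from the series table, and whether its values stand above background was not tested.

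**Figure D2:**
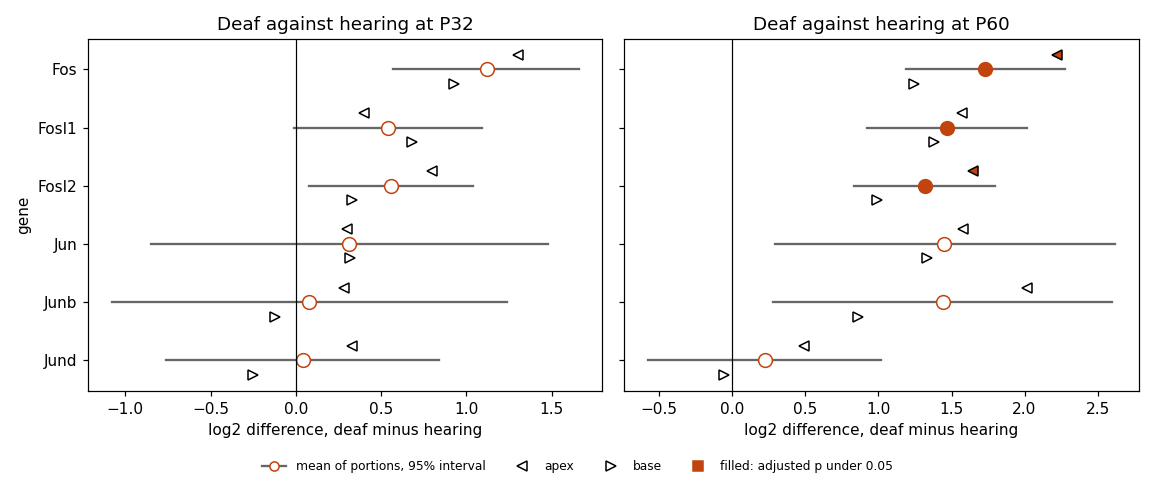
Difference between deaf and hearing ganglia in log2 units (horizontal axis) for each gene (vertical axis) at P32 and at P60. Circles are the mean of both portions with the 95% interval from limma, triangles the apex and the base, and filled symbols have an adjusted p under 0.05. At P60 Fos (1.73), Fosl1 (1.47) and Fosl2 (1.32) are filled, and no symbol is filled at P32.

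Within the portions at P60, Fos and Fosl2 passed in the apex. Fos differed there by 2.22 ± 0.37 log2 units (limma, adjusted p = 0.0119) and Fosl2 by 1.65 ± 0.32 (limma, adjusted p = 0.0315), where 0.452% of the genes of the series table and 0.301% of those of the platform tables passed as higher. The apical difference was 1.57 for Fosl1 (limma, adjusted p = 0.0842), 2.02 for Junb and 1.58 for Jun. In the base no member passed. Fosl1 had the widest basal difference there at 1.38 ± 0.37, followed by Jun (1.33), Fos (1.24), Fosl2 (0.99) and Junb (0.86), and 0.0522% of genes passed as higher in the series table and 0.0415% did in the platform tables. All 6 members had a smaller difference in the base than in the apex, but the test of that contrast passed for none (limma, adjusted p = 1 for each), as for 0% of all genes. For Fos the basal minus the apical effect was -0.98 with a 95% interval of -2.07 to 0.10. The apical calls of Fos and Fosl2 also depended on single samples, since neither passed without P60 hearing apex replicate 1 or 3 or P60 deaf apex replicate 2. Fos alone passed without P60 hearing apex replicate 2 (adjusted p = 0.0424) or P60 deaf apex replicate 3 (0.0267).

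At P32, the earlier of the ages, the comparison asks whether the genes had moved earlier. No member passed, and 0% of the genes of the series table and 0.0104% of those of the platform tables passed as higher. Without adjustment, limma gave 200 of the 5750 genes a p under 0.05 in either direction. That is fewer than this threshold passes on average when no gene differs. Among the members Fos (0.000428) and Fosl2 (0.0245) had such a p. Fos had the largest difference at 1.12 ± 0.26 (limma, adjusted p = 0.205) and was higher in 6 of 6 pairs, by 0.02 to 2.34. Its deaf samples were at 10.38, 11.91 and 11.34 in the apex and 9.98, 10.91 and 10.72 in the base. The hearing samples were at 10.36, 9.57 and 9.79 in the apex and 8.66, 10.56 and 9.60 in the base. The ranges overlapped, with P32 hearing apex replicate 1 level with the lower deaf samples. Without that sample the difference was 1.40 and passed (limma, adjusted p = 0.00406), and Fos also passed in the P32 apex by itself (1.87 ± 0.31, adjusted p = 0.0173). Leaving it out also raised the genes called at P32 over the series table, in either direction, from 1 to 38. The genes called in the P32 apex of that fit were not counted. With any other sample left out Fos did not pass at P32.

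The other members differed less at P32. Fosl2 was at 0.56 ± 0.23, with deaf samples of 7.58 to 9.51 (median 8.78) and hearing samples of 7.58 to 8.62 (median 7.96). Fosl1 was at 0.54 ± 0.26, with deaf samples of 6.28 to 7.86 (median 7.38) and hearing samples of 6.03 to 7.83 (median 6.48). It was higher in 6 of 6 pairs, by 0.03 to 1.41, although the ranges overlapped almost throughout. The share of all genes that were higher in 6 of 6 pairs was not counted at either age. Jun was at 0.31 ± 0.55, Junb at 0.08 ± 0.55 and Jund at 0.04 ± 0.38, each with an adjusted p of 1 by limma. For Jun the platforms pointed in opposite directions, at 1.59 on the 8-sample and -0.33 on the 16-sample platform. Without P32 hearing base replicate 1 the P32 difference of Jun turned to -0.11. Without P32 hearing apex replicate 1, which had the highest Junb of the P32 samples (10.70), the differences were 0.32 for Jun and 0.29 for Junb, and that of Jund turned to -0.04. In the P32 deaf base, replicate 2 had 7.19 of Junb against 9.78 and 9.69.

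**Figure D3:**
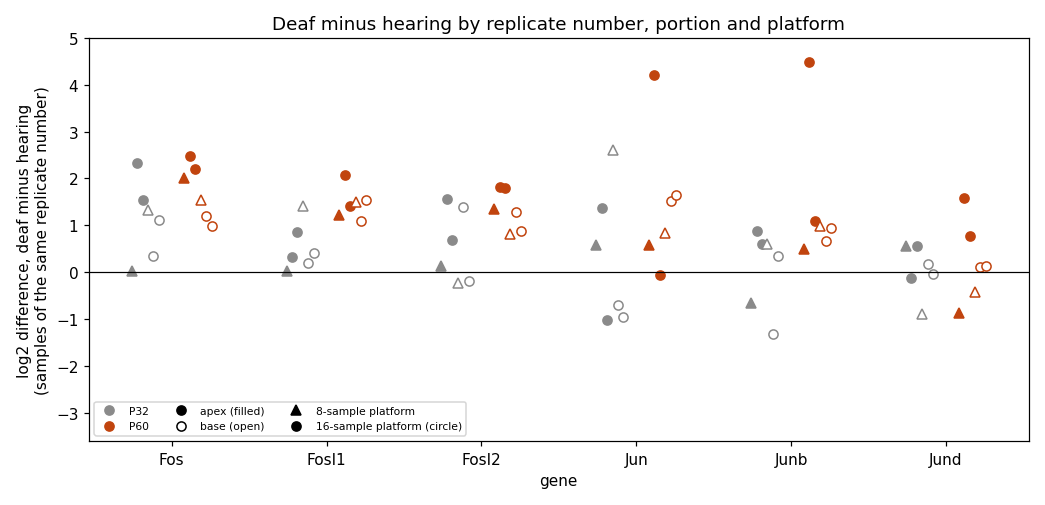
Deaf minus hearing level in log2 units (vertical axis) between samples of the same replicate number and portion, for each gene (horizontal axis). Grey is P32 and orange P60, filled symbols are apex and open symbols base, and triangles are the 8-sample platform. At P60 all 6 differences are above 0 for Fos, Fosl1, Fosl2 and Junb, which for Fos and Fosl1 follows from samples that did not overlap. Number 2 of the apex stands at 4.21 for Jun and 4.48 for Junb.

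The difference between deaf and hearing ganglia was larger at P60 than at P32 for 6 of 6 members, by 0.18 (Jund) to 1.37 (Junb) log2 units. None of these increases passed (limma, adjusted p = 1 for each). The 95% interval of the increase was 0.16 to 1.71 for Fosl1 and 0.07 to 1.43 for Fosl2, and it included 0 for Fos (-0.15 to 1.39), Jun, Junb and Jund. The share of genes that passed this contrast as higher was 0% in the series table and 0.0104% in the platform tables. An age effect that differs with deafness was therefore not shown for any member.

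Age and position by themselves moved no member past the threshold. From P32 to P60 in deaf rats the differences ran from 0.30 to 1.14 in the apex and from -0.47 to 1.01 in the base. Fosl1 rose by nearly the same amount in both, 0.99 ± 0.37 and 0.97 ± 0.37, without passing (limma, adjusted p = 1 and 0.941). In hearing rats they ran from -0.90 to 0.14 in the apex and from -0.67 to 0.61 in the base. The smallest adjusted p of these 24 values was 0.907. Of all genes, 0% to 0.0174% passed in the series table and 0% to 0.0208% in the platform tables, in either direction.

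Between base and apex the smallest adjusted p over the members was 0.739 (limma), for Jund in P60 deaf rats (-0.98). All 6 members were lower in the base than in the apex of deaf rats at both ages, by -0.21 to -0.90 at P32 and -0.17 to -1.13 at P60. In P60 hearing rats, where 1.44% of the genes of the series table and 0.987% of those of the platform tables differed between the portions, Fos was at 0.59 and the others at -0.44 to 0.49. In the other settings 0% (P32 hearing), 0.0348% (P32 deaf) and 0.73% (P60 deaf) of the genes of the series table passed, and 0%, 0.0415% and 0.395% of those of the platform tables.

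In the order of the 8 group means, P60 deaf apex was highest for all 6 genes. P60 deaf base came next for 5 of them, at 11.45 ± 0.32 for Fos, 7.99 ± 0.46 for Fosl1, 9.17 ± 0.98 for Fosl2, 10.46 ± 1.51 for Jun and 9.79 ± 1.33 for Junb (SD, n = 3). For Jund it was the lowest of the 8 groups. The P32 deaf apex followed after these for Fos (11.21 ± 0.77), Fosl1 (7.33 ± 0.84), Fosl2 (8.73 ± 0.87), Jun (10.33 ± 1.65) and Junb (9.78 ± 0.36). The span from the highest to the lowest group mean was 2.24 log2 units for Fos, 2.03 for Junb, 1.98 for Fosl1, 1.65 for Fosl2, 1.58 for Jun and 0.98 for Jund. Neighbours in these orders lay within the larger of their SDs of each other, except P60 hearing base above P32 hearing base for Fosl1 (6.62 ± 0.24 and 6.34 ± 0.25).

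The promoters of 5 members, Fosb, Fosl1, Fosl2, Junb and Jund, are in the RefSeq table for build GRCr8. Each is a window of 250 bases before to 50 after the gene start. No window was given for Fos or Jun, so their promoters were not searched. Neither TGACTCA, the AP-1 site, nor a CArG box, the site of serum response factor, was found on either strand of the 5 windows. They occur in 4.63% and 1.64% of all 33469 such windows. TGACGTCA, the cAMP response element that some Jun dimers also bind, occurs once in the Jund window, at position -221 from the gene start, and in 1.83% of all windows. TGACGCA, a variant searched for after these windows had been read, occurs in 1.9% of all windows and at 2 places in that of Fosl1, at positions -150 and -86, both as its reverse complement. The windows of Fosl1 and Fosl2, which passed as higher in P60 deaf ganglia, and of Jund, which did not pass, are shown. They read 5′ to 3′ on the strand of the gene, with these matches in capitals. They lie at chr1:212183635-212183934 on the plus strand (Fosl1), and on the minus strand at chr6:30039220-30039519 (Fosl2) and chr16:18769722-18770021 (Jund).
Fosl1: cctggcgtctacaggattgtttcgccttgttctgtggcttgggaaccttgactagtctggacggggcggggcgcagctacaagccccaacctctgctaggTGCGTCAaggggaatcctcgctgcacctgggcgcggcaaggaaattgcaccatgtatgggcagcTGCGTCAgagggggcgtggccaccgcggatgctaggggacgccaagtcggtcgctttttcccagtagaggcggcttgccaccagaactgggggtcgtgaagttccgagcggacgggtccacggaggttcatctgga
Fosl2: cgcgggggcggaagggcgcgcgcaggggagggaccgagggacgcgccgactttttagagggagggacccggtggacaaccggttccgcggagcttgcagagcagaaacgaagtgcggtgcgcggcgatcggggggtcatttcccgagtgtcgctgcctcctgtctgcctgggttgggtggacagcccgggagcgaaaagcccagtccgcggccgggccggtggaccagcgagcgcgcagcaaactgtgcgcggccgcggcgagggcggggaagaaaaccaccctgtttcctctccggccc
Jund: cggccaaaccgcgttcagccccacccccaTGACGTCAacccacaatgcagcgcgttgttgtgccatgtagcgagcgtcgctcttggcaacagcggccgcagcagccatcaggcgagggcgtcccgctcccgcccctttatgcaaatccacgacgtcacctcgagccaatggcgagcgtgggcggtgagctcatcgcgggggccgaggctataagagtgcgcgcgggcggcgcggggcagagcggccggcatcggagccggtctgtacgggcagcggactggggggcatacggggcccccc
The Fosl2 window holds none of the motifs searched, which says only that these letters are not in this window.

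Among the genes of the series table that were higher in P60 deaf ganglia, 50 have a promoter window, and TGACTCA is in 7 of them (14%). Over the 5022 tested genes with a window it is in 210 (4.18%). The other motifs were found in smaller shares of the 50 than of the tested genes, TGACGTCA in 2% against 3.35%, TGACGCA in 0% against 3.88% and the CArG box in 0% against 1.04%. No test was made of these shares, and a match does not show that AP-1 binds there. The 7 genes are Ucn2, a stress peptide (5.11 ± 0.56 log2 units), Gpnmb (3.08 ± 0.42) and Cd68 (1.50 ± 0.22) of phagocytes, the chemokine Cxcl14 (2.04 ± 0.41), Aspg (1.95 ± 0.42), the ectonucleotidase Entpd2 (1.74 ± 0.31) and the matrix gene Ecm1 (0.86 ± 0.19). Limma called all of them, with adjusted p of 6.98e-05 to 0.0325. The calls of Aspg, Ecm1 and Cxcl14 ended in 7, 9 and 2 of the 24 fits without 1 sample, and with the portions as a random block Ucn2 alone of the 7 still passed (adjusted p = 0.0483). The sites of the 4 best known genes are shown with the flanking bases on the gene strand, and the capitals mark the motif, which reads as its reverse complement in each. They are at chr8:118515934-118515960 (Ucn2, plus strand), chr4:79341031-79341057 (Gpnmb, plus strand), chr10:54882505-54882531 (Cd68, minus strand, the nearer of its 2 sites) and chr17:8323041-8323067 (Cxcl14, plus strand).
Ucn2: taggaggggcTGAGTCAtaggtagaat
Gpnmb: caggagcaagTGAGTCAtgagcacgag
Cd68: ctgaggtgccTGAGTCAggtttggggt
Cxcl14: gaaatctcagTGAGTCAccgagtggtt

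Other genes of the AP-1 pathway were read from lists of its partners, its upstream kinases, further immediate early genes and described targets. The lists were chosen with earlier results of these data known, and the share of all genes above 0 was not counted. Of 18 tested immediate early genes outside the family (30 listed) 1 rose at P60, Atf3, with a list median of 0.55 against 0.04 over all genes, and 16 of 18 were above 0. Atf3, which pairs with Jun proteins and marks injured neurons, was at 10.77 in deaf and 7.40 in hearing ganglia, a difference of 3.36 ± 0.50 (limma, adjusted p = 0.00188). Its call held in all 24 fits without 1 sample and ended with the portions as a random block (adjusted p = 0.115). Other genes of the list, chosen after their values were seen, did not pass, among them Egr1 (0.72 ± 0.51), Nr4a2 (0.76 ± 0.32), Dusp6 (0.71 ± 0.26) and Egr2 (-0.15 ± 0.56). At P32 none of the 18 passed and the median was 0.12.

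Of 9 tested basic leucine zipper partners (17 listed) Atf3, which is also in the first list, alone passed at P60, and the median was 0.22. The rest, which include Atf2, Atf4, Mafk, Nfe2l2 and Ddit3, lay between -0.11 and 0.44. Of 13 tested kinases and factors upstream of AP-1 (26 listed) none passed at either age, and the P60 median was 0.09. The smallest p values at P60 belonged to Map2k4, a kinase that activates JNK (-0.37 ± 0.16), and Mapk10, the JNK of neurons (-0.74 ± 0.34), with adjusted p of 0.343 and 0.383 by limma. Of 16 tested genes described as AP-1 targets (30 listed) 1 rose, Ccnd1, the cyclin D1 of cell cycle entry, by 1.19 ± 0.24 (limma, adjusted p = 0.0159). Its call was lost when either P60 deaf apex replicate 2 (adjusted p = 0.0546) or P60 deaf base replicate 3 (0.0571) was left out, and with the portions as a random block (0.461). The median of the target list was 0.74 with 14 of 16 above 0, against 0.15 at P32. Plaur, the urokinase receptor (1.63 ± 0.43), Ccl2, a monocyte chemokine (1.72 ± 0.47), and Vim, vimentin (0.37 ± 0.10), were near the threshold without passing (limma, adjusted p = 0.0706, 0.0833 and 0.0724).

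**Figure D4:**
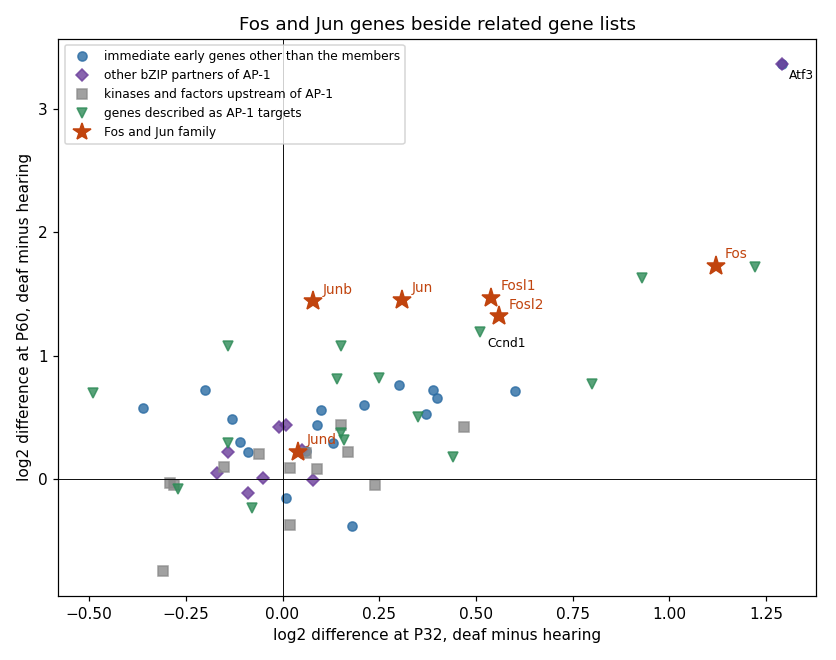
Difference between deaf and hearing ganglia in log2 units at P32 (horizontal axis) and at P60 (vertical axis) for the 6 members (stars) and the tested genes of the 4 lists. Atf3 (1.29 and 3.36) and Ccnd1 (0.51 and 1.19) are the listed genes outside the family that passed at P60, and Jund (0.04 and 0.22) lies among the genes near 0.

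Macrophage markers moved in the same comparison. Of 9 tested markers (10 listed) 6 rose at P60, among them Cd68 (1.50), Csf1r (1.14) and Adgre1 (1.09), with a list median of 1.14, and none passed at P32 (median 0.37). Cd68 kept its call in all 24 fits without 1 sample, the other 5 lost theirs in 10 to 16 of them (limma, adjusted p up to 0.13), and none of the 6 passed with the portions as a random block (0.0555 to 0.827). Their summed level ran from 14.61 to 16.17 log2 units in P60 hearing and from 16.10 to 16.77 in P60 deaf samples, and at P32 from 15.07 to 16.64 and from 15.68 to 16.49. Their part in the difference of the Fos genes was not tested. Neuron markers were below 0 in 10 of 10 at both ages without a call (median -0.32 at each), with summed levels of 17.20 to 17.91 in P60 hearing and 16.93 to 17.53 in P60 deaf samples. Of 3 tested muscle markers (median -0.58, 1 above 0) Myl1 fell at P60 (-2.45 ± 0.37), a call that ended with the portions as a random block (adjusted p = 0.311). Acta1 (-0.58 ± 0.57) and Tnnt3 (0.83 ± 0.52) did not pass. No gene of the Schwann cell and satellite glia (10 tested, median 0.19), fibroblast (5, 0.15), endothelium (3, 0.11), bone (6, 0.46), blood (5, 0.18) or hair cell (3, 0.19) lists passed at P60. The smallest value of the series table was 8.585 intensity units, so a level above 0 does not show that a cell type was present. Whether the markers stand above background was not tested. Ocm of hair cells was at 6.02 in P60 deaf and 9.62 in P60 hearing samples, without passing (limma, adjusted p = 0.0913). The other hair cell markers were higher in the deaf samples, Myo7a at 8.52 against 7.78 and Espn at 9.24 against 9.04.

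Likeness of pattern was searched among the named genes of the series table, also for Fosl1. Symbols made of LOC or RGD and a number were left out. By the mean absolute difference between centred group means over the 8 groups, the genes whose pattern was most like that of Fos were Xdh (0.17 log2 units), Osmr (0.18) and C3ar1 (0.23), where the median gene was at 0.73. For Fosl2 they were Cp (0.11), Samsn1 (0.12) and Pde1c (0.12), and for Fosl1 Ccl4 (0.17), Gfra1 (0.18) and Zfp36l2 (0.20). For Junb they were Vwa1 (0.10), Csf2ra (0.18) and Zfp36l2 (0.18), and for Jun Id4 (0.15), Vwa1 (0.19) and Slc12a9 (0.20). Of the genes named here as alike, Osmr, Cp, Pde1c and Gfra1 passed at P60 and the others did not. Group means hide the platform gap within each group, so likeness here says nothing of likeness between samples.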

How the data were processed

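Gene expression was measured in 24 samples of rat spiral ganglion on 1-colour arrays. The deposited values are intensity values on a linear scale that the authors normalized with RMA, per the submitters' processing notes, and averaged over technical replicates, per the labels. The version of RMA, whether the platforms were normalized together and the rule behind the 14138 rows of the series table (26419 in the platform tables) are not given in the sources used here. Precision is limited by the numbers of arrays.

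Rows were named through RefSeq accessions (table of assembly GRCr8), which named 5828 rows of the series table and 9747 of the platform tables. The brightest row per gene was kept. Values were log2-transformed and tested with limma 3.58.1 in R 4.3.3 on all 24 samples, with 8 group means and platform as an additive term (15 residual degrees of freedom). P-values are two-sided, adjusted by Benjamini-Hochberg over 5750 genes, or 9627 for Fosl1 and Jund, with a threshold of 0.05. There were 17 comparisons. Exact tests of 3 against 3 samples cannot go below 0.1 and were not used. The labels do not say that same-numbered samples share animals, so p-values measure the spread between these samples.

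The members and lists were chosen with earlier results of these data known. Named list genes are those that passed at P60 or P32 (at most 6 a list), or else the 2 with the smallest p, with at most 3 names a marker list and the 3 genes nearest in pattern to each member whose group means span 1 log2 unit. Egr1, Egr2, Nr4a2, Dusp6, Plaur, Ccl2, Vim and other list genes named beside them, and the genes with TGACTCA, were chosen after their values were seen. Alternatives covered samples, platform, replicate block, random block, scaling, genes tested, dim genes, pseudocount, trend and rows per gene.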

Additional observations from a re-analysis of the deposited data

Results flagged for a closer look

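Over 24 sets of 6 samples (a gene at 1 age and condition), chance alone would mark about 1 set in 20. In the P32 hearing samples Jun stood at 11.41 in apex replicate 1, with the nearest of the other samples at 9.74. In the P32 deaf samples Junb stood at 7.19 in base replicate 2, with the nearest at 9.37. Both were marked because the gap to the nearest sample took up more of the set's range than Dixon's limit for 6 samples allows (0.673 and 0.761 of it). Each set mixes the platforms. The Jun value lies within the range of the other samples of the 8-sample platform, which were at 10.91 or above apart from P32 hearing base replicate 1 (9.04).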

How the results depend on the processing

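Fos, Fosl1 and Fosl2 kept the P60 call in all 24 fits without 1 sample. Members called at P60 went from 3 to 2 without a platform term or with dim genes left out, to 1 on the 16-sample platform alone and to 0 with the portions as a random block. Calls within portions went from 2 to 0 on that platform alone and without a platform term, and to 1 with the random block or with dim genes left out, which removes Fosl2, Jun and Junb. Without 1 sample they ran from 0 to 4, and members called at P32 from 0 to 1. Genes called at P60 were 77, or 14 on the 16-sample platform, 36 without a platform term, 4 with the random block, 271 with a replicate block within each age, 178 with a replicate block over all groups, and 29 to 171 without 1 sample. At P32 the count was 1, or 7, 12 (replicate block within each age), 0 (random block, or dim genes left out), 2 (all named genes of the platform tables) and 1 to 38. Directions turned in members near 0. Without 1 sample P32 values ran from -0.11 to 0.55 for Jun, -0.19 to 0.46 for Junb and -0.21 to 0.25 for Jund, and the age contrast of Jund from -0.03 to 0.42. Jun at P32 was -0.33 on the 16-sample platform.

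Same-numbered deaf and hearing samples deviated together at -0.086 to 0.839, over 0.1 in 11 of 12 pairs. The exception was number 2 of the P60 apex, so by the rule that every pair exceed 0.1 the P60 comparison was not treated as paired. The deviations were from group means with the platform gap left in, and same-numbered samples share a platform by design. That most pairs deviated together therefore cannot tell pairing from platform, and pairing was not excluded. Same-numbered apical and basal samples of 1 age and condition deviated together at -0.023 to 0.919, over 0.1 in 11 of 12 pairs. The platform gap was left in there too, so shared animals and a shared platform could not be told apart. With a replicate block the same 3 members passed at P60 (adjusted p from 0.00103 to 0.00533), and Fosl1 also passed in the P60 apex (0.0119 and 0.0212). The causes of these shifts were not tested, except where fewer samples or genes enter. Signal over background was not given, which limits Fosl1 and Jund. The same limit holds for Fosl2, Jun and Junb, which lie in the dimmest 25% of the named genes of the series table.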
